A study of Mus musculus with 4 samples.

Results

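The tumour necrosis factor (TNF) superfamily of ligands and the matching superfamily of receptors were examined in bulk RNA sequencing of J558 allografts. Members were taken by gene symbol: every symbol in the count tables that begins with Tnfrsf or Tnfsf, together with Tnf, Lta, Ltb, Ltbr, Cd40, Cd40lg, Cd27, Cd70, Fas, Fasl and Ngfr. Tnfrsf13b, Tnfrsf13c, Tnfrsf14, Tnfrsf17, Tnfsf13 and Tnfsf13b were left out by the same rule. This gave 37 members among 24421 gene symbols. The rule uses symbols only, but it was set with earlier results of these data known.

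J558 is a mouse plasmacytoma line, here grown under the skin of the right flank in female BALB/c mice whose immune system was intact, so each library held RNA of tumour cells and of the infiltrating host cells. Mice in the Vehicle group (n = 2 libraries) received methylcellulose by mouth, and mice in the TAK-931 group (n = 2 libraries) received TAK-931, an inhibitor of the replication kinase CDC7, at 60 mg/kg once daily for 6 days; all allografts were labelled as day 6. The study's methods give an age of 4 weeks for the mice it used, and no genetic modification is named for either group. The design text calls the samples of a group independent without naming the mice or a shared day, so p-values measure the spread between these libraries only.

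TNF superfamily ligands are mostly membrane proteins that act as trimers, either on the cell surface or after cleavage, and they bind receptors with cysteine-rich extracellular repeats. Receptors with a death domain can start apoptosis through adaptors and caspase-8, most other receptors bind TRAF adaptors and lead to NF-kappaB activation, and decoy receptors bind ligand without passing on a signal. In tumours and lymphoid tissue the family is known for T cell costimulation, killing by cytotoxic lymphocytes, macrophage activation and the organisation of lymphoid structures.

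Total counts ranged from 16487902 to 19589339 per library. The vehicle-treated libraries were alike (Pearson's r of log2 CPM across genes 0.977), whereas the TAK-931-treated libraries were less so (0.865). CPM denotes counts scaled to the library total after normalisation by the trimmed mean of M values (TMM). On this scale 3 counts, the most that a count of 0 allows, corresponded to between 0.158 and 0.18 CPM, for counting error only. Small counts were mostly even (17.9% to 23.9% of counts from 1 to 20 were odd), as when both mates of a pair are counted, so this error is understated. The TAK-931-treated libraries differed from each other, and results are therefore given for each TAK-931-treated library as well as for the group. The samples are labelled as B lymphocytes. The 7 plasma cell and J558 markers summed to between 4783 and 13590 CPM in every library, while of the B cell markers Pax5 had 0 counts in all 4 libraries and Cd79b had between 74 and 209 CPM.

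The 3 ligand genes Ltb, Tnf and Lta lie side by side within 10.8 kb of chromosome 17 (35194507 to 35205351, mm10), and the highest CPM of each was found in TAK-931-1. That library was also the highest for 24 of the 28 members tested. The promoter windows of Ltb, Tnf and Lta from RefSeq are shown because neighbouring genes can share regulatory sequence. Each 300-base window ends 50 bases after the annotated start, on the gene's own strand, in the C57BL/6J reference build GRCm38.p6: Ltb at chr17:35194257-35194556 (plus strand), Tnf at chr17:35201958-35202257 (minus strand) and Lta at chr17:35205302-35205601 (minus strand). Capitals mark matches, on either strand, to a form of the kappaB site (GGGA, any base, then TTTCC) or to TATAAA, the core of the TATA box; the motifs do not overlap in these windows.
Ltb: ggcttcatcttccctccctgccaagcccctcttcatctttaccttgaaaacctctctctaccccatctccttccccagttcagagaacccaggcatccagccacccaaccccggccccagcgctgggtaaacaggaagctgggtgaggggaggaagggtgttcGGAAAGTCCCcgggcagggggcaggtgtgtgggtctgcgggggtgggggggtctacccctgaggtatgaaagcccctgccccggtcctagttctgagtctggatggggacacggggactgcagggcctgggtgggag
Tnf: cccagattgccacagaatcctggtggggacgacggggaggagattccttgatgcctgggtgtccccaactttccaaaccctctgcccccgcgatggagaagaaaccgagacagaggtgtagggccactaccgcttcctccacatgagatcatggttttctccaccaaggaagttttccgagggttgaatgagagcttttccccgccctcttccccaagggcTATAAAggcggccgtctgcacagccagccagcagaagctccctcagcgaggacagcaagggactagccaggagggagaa
Lta: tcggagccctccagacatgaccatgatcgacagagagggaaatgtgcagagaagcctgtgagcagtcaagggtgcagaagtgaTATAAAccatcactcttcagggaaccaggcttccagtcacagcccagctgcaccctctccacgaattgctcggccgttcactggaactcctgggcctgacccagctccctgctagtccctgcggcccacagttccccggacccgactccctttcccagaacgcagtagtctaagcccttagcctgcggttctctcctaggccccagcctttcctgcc

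The Ltb window held the kappaB letters on the opposite strand from position −87, the Tnf window held TATAAA from position −29, and the Lta window held TATAAA from position −167, counted from the start site. The kappaB letters occurred in 0.411% of 32851 mouse promoter windows and, among 27 members with a window, in Ltb alone. TATAAA occurred in 13.6% of all windows and in those of Lta, Tnf, Tnfrsf23, Tnfsf11 and Tnfsf18. A match describes the sequence of the reference strain, not of the BALB/c mice, and was not tested as a binding site.

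Of the 37 members, 28 passed the filter on low counts and were tested, and 8 had counts but too few. Tnfsfm13, the read-through gene of Tnfsf12 and its neighbour, had 0 counts in all 4 libraries. Of its exon bases, 43.7% are shared with Tnfsf12 and 56.2% with Tnfsf13, so its 0 need not mean that it was not expressed. In 22 of the 28 tested members both TAK-931-treated libraries lay above both vehicle-treated libraries, in 1 (Tnfrsf22) both lay below, and in 5 the groups overlapped. Over all 13669 tested genes, 30% lay above and 32.7% below without overlap. A fitted log2 fold change over 1.5 was reached by 19 members and by 16.8% of all tested genes; a change of that size in the lower direction was reached by 0 members and 1.46% of genes. The median log2 fold change was 2.21 over the tested members and 0.02 over all tested genes. Without TAK-931-1 these medians were 0.80 and −0.02. Of the tested members, 3 (Fas, Fasl and Tnfsf18) passed the filter through the TAK-931-treated libraries only and thus had to differ, so these counts describe the tested members and are not independent support. With at least 10 counts required in every library, 21 members could be tested, of which 17 lay above and 0 below. That filter kept 12242 genes, and the shares of these above and below were not computed.

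No member passed an adjusted p of 0.05 in edgeR's quasi-likelihood test, in which 0 of 13669 genes (0%) did and the lowest adjusted p was 0.275. At the unadjusted threshold of 0.05 the same test counted 13 members as higher (11.6% of all genes) and 0 as lower (6.55% of all genes). At that threshold limma-voom passed 2 members and 1860 of 13669 genes, a smaller share of members than of genes. DESeq2 called 13 members as higher at its adjusted p under 0.05, against 9.78% of 12874 genes with a value, and limma-voom called 0. DESeq2 gave no adjusted p for Tnfsf14. Among the 19 members over 1.5 on the log2 scale, edgeR's adjusted p lay between 0.275 and 0.317. With 2 libraries against 2, an exact permutation test of one gene cannot give a p below 0.333. Because the tissue was sequenced in bulk, more cells of a type and more RNA per cell cannot be told apart.

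The members differed from vehicle by more in TAK-931-1 than in TAK-931-2. In TAK-931-1, 21 tested members reached 2-fold or more of the vehicle mean (28.1% of all tested genes did) and the median fold was 6.26. In TAK-931-2, 12 members did (12.2% of all tested genes) and the median fold was 1.74. Over all tested genes the median folds were 0.978 and 0.983. TAK-931-1 exceeded TAK-931-2 in 26 of 28 members (50.4% of all tested genes did), the exceptions being Tnfsf9 and Tnfrsf10b. Among the 22 members without overlap, TAK-931-2 exceeded the higher vehicle-treated library by the smallest ratio in Tnfrsf9 (10.7 against 10.4 CPM) and Tnfrsf1a (51.5 against 49.5 CPM).

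**Figure D1:**
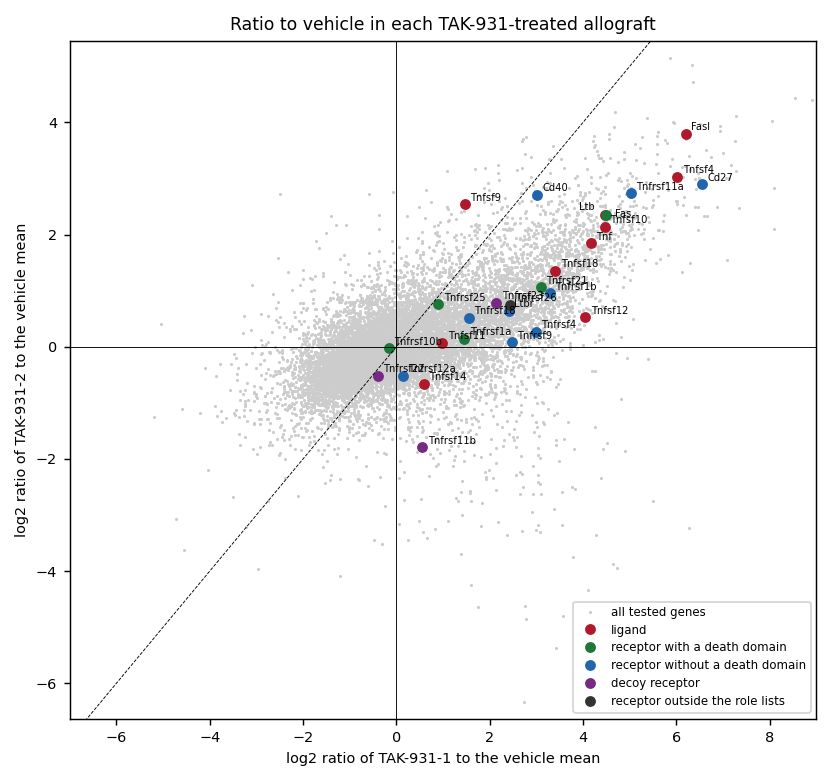
Log2 ratio of TAK-931-1 (horizontal) and of TAK-931-2 (vertical) to the vehicle mean for the 28 tested members, coloured by role, over all 13669 tested genes in grey; the dashed line marks equal ratios. Most members lie to the right of 0 and under the dashed line, Tnfsf9 lies above it, and Tnfrsf11b lies lowest.

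Markers of infiltrating immune cells were higher in the same libraries, and most so in TAK-931-1. The 15 T cell markers summed to 120.4 and 115 CPM in vehicle, 2131 CPM (TAK-931-1) and 219.1 CPM (TAK-931-2), and 13 of 15 lay above the vehicle pair in each TAK-931-treated library; Thy1, which fibroblasts also express, held 38.1 and 54.9 CPM of the vehicle sums. Cd6 held a further 34.0 and 31.9 CPM of them and had 20 CPM in TAK-931-2, below the vehicle pair. Cd3e, a chain of the T cell receptor complex, had 1.9, 0.36, 136 and 7.7 CPM in Vehicle-1, Vehicle-2, TAK-931-1 and TAK-931-2. The 12 monocyte and macrophage markers summed to 546.2 and 455 CPM in vehicle, 7252 CPM (TAK-931-1) and 1359 CPM (TAK-931-2), mostly of Lyz2 and C1qa, and 11 of 12 lay above the vehicle pair in both, Cd14 being below it in TAK-931-2. The 8 NK cell markers summed to 50.4, 25.3, 463 and 111 CPM in the same order of libraries. Klra8 was at 0 counts throughout, and 6 of 8 lay above the vehicle pair in both TAK-931-treated libraries. Most of the 463 CPM came from Prf1, Gzma, Klrk1 and Eomes (180, 114, 76.9 and 69.5 CPM), which are not limited to NK cells. The 8 dendritic cell markers summed to 30.3, 24.6, 318 and 68 CPM, with 7 of 8 above, Flt3 being below the pair in TAK-931-2. The part of these cells in the members' values was not tested.

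The remaining marker lists also differed between the TAK-931-treated libraries. Skeletal muscle markers summed to 85 and 89.7 CPM in vehicle, 584 CPM (TAK-931-1) and 13 CPM (TAK-931-2), and the adipocyte sums were 45.1, 67.7, 263 and 28.6 CPM in the same order. The sums of the 7 endothelial markers were 228, 248, 824 and 238 CPM, and those of the 8 fibroblast markers 1921, 2193, 15310 and 5179 CPM. The 5 neutrophil markers found summed to 6.29, 6.83, 129 and 15.2 CPM, with S100a8, Cxcr2 and Retnlg at 0 in some library. Of the 15.2 CPM in TAK-931-2, Csf3r made up 15.1, and 1 of the 5 lay above the vehicle pair in both TAK-931-treated libraries. The B cell list summed to 202, 244, 131 and 238 CPM, the plasma cell and J558 list to 9671, 10240, 4783 and 13590 CPM, and the keratinocyte list to 2.25, 35.3, 14.5 and 2.16 CPM, with 4 of 5 genes at 0 in some library.

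**Figure D2:**
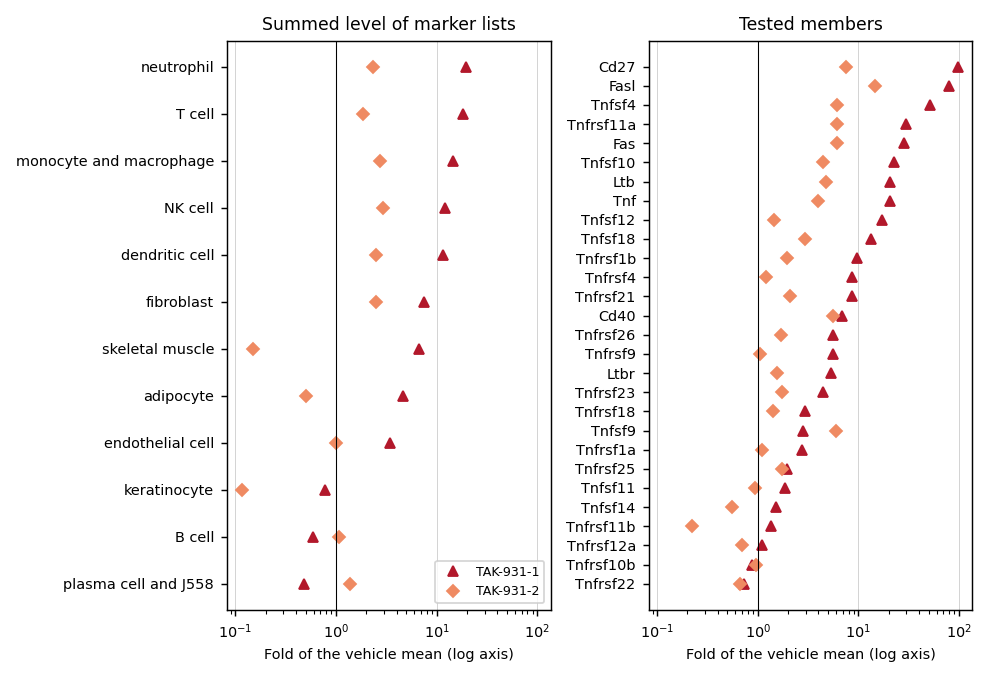
Fold of the vehicle mean (log axis) by TAK-931-treated library for the summed CPM of 12 marker lists (left) and for the 28 tested members (right). Immune marker sums in TAK-931-1 are between 11.6-fold and 19.6-fold, apart from the B cell sum at 0.587-fold, and members in that library range from 0.726-fold to 97.2-fold.

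Among the ligands, 10 of 15 were tested, and in 8 of these each TAK-931-treated library lay above the vehicle pair (30% of all tested genes did), with a median log2 fold change of 3.42. DESeq2 called 7 of the 10 (9.78% of all genes). Fasl and Tnfsf18 passed the filter through the TAK-931-treated libraries only and thus had to differ. These counts are therefore not independent support. The cytotoxic ligand Fasl, which triggers apoptosis through Fas (chromosome 1, 161780692 to 161788495), had 0 CPM in Vehicle-1, 0.48 CPM in Vehicle-2, 19.1 CPM (TAK-931-1) and 3.5 CPM (TAK-931-2). Both TAK-931-treated libraries were above the vehicle pair, which was at or near the counting floor. Its log2 fold change was 5.52 (SE 1.72, adjusted p 0.275 by edgeR and 0.00103 by DESeq2), 3.83 without TAK-931-1 and 4.52 without Vehicle-1. Without Vehicle-2, the remaining vehicle library had 0 counts, and the fitted value of 10.6 depends on the prior count and is no bound.

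Tnfsf10 encodes TRAIL, the other main death ligand of the family (chromosome 3, 27317077 to 27339665). It had 4.39 and 3.84 CPM in vehicle, 92.7 CPM (TAK-931-1) and 18.5 CPM (TAK-931-2). The vehicle pair was close together, and TAK-931-1 was 5.01 times TAK-931-2. The log2 fold change was 3.76 (SE 0.89, adjusted p 0.275 by edgeR and 8.9e-05 by DESeq2) and 2.16 without TAK-931-1.

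Tnf itself, the macrophage and T cell cytokine that gives the family its name (chromosome 17, 35199367 to 35202007), had 0.712 and 0.779 CPM in vehicle, 15.4 CPM (TAK-931-1) and 2.98 CPM (TAK-931-2). The groups did not overlap, at 20.6-fold and 3.99-fold of the vehicle mean. Ltb, the membrane anchor of lymphotoxin, had 7.06 and 3.12 CPM in vehicle, 106 CPM (TAK-931-1) and 24.3 CPM (TAK-931-2). The log2 fold change was 3.68 for Ltb (SE 0.92, adjusted p 0.275 by edgeR and 0.000183 by DESeq2) and 3.61 for Tnf (SE 1.01, adjusted p 0.275 by edgeR and 0.00422 by DESeq2). When TAK-931-1 was left out they were 2.25 and 1.98. Lta, the soluble subunit of lymphotoxin and the third gene of this locus, was counted in TAK-931-1 alone, with 32 counts against 0 in each other library, at least 9.43-fold higher there than a floor of 3 counts per vehicle library.

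The costimulatory ligands are displayed mainly by antigen-presenting cells and bind receptors on T cells. Tnfsf9, the ligand of Tnfrsf9 (4-1BB), had 4.68 and 4.2 CPM in vehicle, 12.4 CPM (TAK-931-1) and 26.4 CPM (TAK-931-2). It was the one tested member with its highest level in TAK-931-2, 5.94-fold of the vehicle mean against 2.8-fold in TAK-931-1. The fitted log2 fold change was 2.13 (SE 0.53, adjusted p 0.275 by edgeR and 0.00533 by DESeq2), 2.57 without TAK-931-1 and 1.46 without TAK-931-2. Tnfsf4, which encodes OX40 ligand, had 0.83 and 0 CPM in vehicle, 21.2 CPM (TAK-931-1) and 2.57 CPM (TAK-931-2). Tnfsf18, which encodes GITR ligand, had 0.474 and 0.24 CPM in vehicle, 4.74 CPM (TAK-931-1) and 1.05 CPM (TAK-931-2). Both of the latter kept their groups apart. The log2 fold changes were 4.82 for Tnfsf4 (SE 1.90, adjusted p 0.279 by edgeR and 0.0142 by DESeq2) and 3.0 for Tnfsf18 (SE 1.07, adjusted p 0.275 by edgeR and 0.0993 by DESeq2). When TAK-931-1 was left out they were 2.6 and 1.53. For Tnfsf4 without Vehicle-1 the fitted value was 10.7, set against a vehicle library at 0 counts, and is no bound.

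Tnfsf12, which encodes the cytokine TWEAK, had 2.14 and 1.5 CPM in vehicle, 31.4 CPM (TAK-931-1) and 2.63 CPM (TAK-931-2). The value in TAK-931-1 was 12.0 times that in TAK-931-2, which lay near the vehicle pair, and the log2 fold change of 3.22 (SE 1.29, adjusted p 0.281 by edgeR and 0.0263 by DESeq2) was 0.53 without TAK-931-1. Of its exon bases, 57.7% are shared with Tnfsfm13, and how reads on shared bases were counted is not stated. Tnfsfm13 had 0 counts in all 4 libraries, so no read on the shared bases was counted for it. If such reads were dropped, the level of Tnfsf12 is understated. Tnfsf11, the osteoclast factor RANK ligand, had 2.02 and 0.719 CPM in vehicle, 2.53 CPM (TAK-931-1) and 1.28 CPM (TAK-931-2), so the groups overlapped. Tnfsf14, the ligand LIGHT, had 1.07 and 0.599 CPM in vehicle, 1.26 CPM (TAK-931-1) and 0.467 CPM (TAK-931-2). TAK-931-1 lay above and TAK-931-2 below the vehicle pair, with a log2 fold change of 0.06 (SE 0.87, adjusted p 0.974 by edgeR). It was −0.83 without TAK-931-1 and 0.57 without TAK-931-2.

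**Figure D3:**
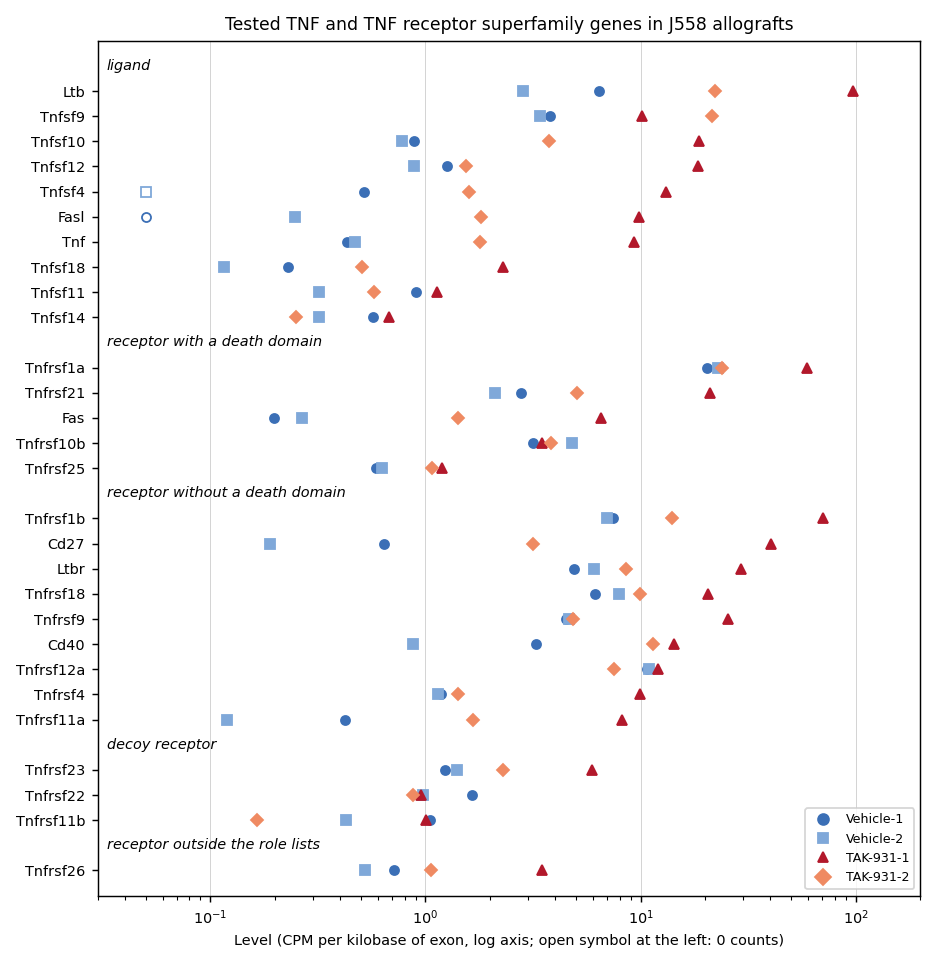
Level of each tested member in each of the 4 libraries, in CPM per kilobase of exon on a log axis, grouped by the role of the protein; open symbols mark 0 counts. Ltb in TAK-931-1 has the highest single value (96.8) and Tnfrsf1a the highest 2 vehicle values (20.5 and 23).

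Of the 6 receptors with a death domain, 5 were tested and 4 lay above the vehicle pair in each TAK-931-treated library (30% of all tested genes did), with a median log2 fold change of 0.94; DESeq2 called Fas and Tnfrsf21 (9.78% of all genes). Fas, the receptor of Fasl (chromosome 19, 34290659 to 34327770), had 0.356 and 0.48 CPM in vehicle, 11.8 CPM (TAK-931-1) and 2.57 CPM (TAK-931-2). The vehicle pair was low and the groups were well apart, at 28.1-fold and 6.15-fold of the vehicle mean. Fas passed the filter through the TAK-931-treated libraries only and thus had to differ, so the counts of this list are not independent support. Its log2 fold change was 4.08 (SE 1.02, adjusted p 0.275 by edgeR and 0.00202 by DESeq2) and 2.6 without TAK-931-1.

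Tnfrsf1a, the broadly expressed TNF receptor, had 44.1 and 49.5 CPM in vehicle, 128 CPM (TAK-931-1) and 51.5 CPM (TAK-931-2). TAK-931-2 exceeded the higher vehicle-treated library by little, and the log2 fold change of 0.94 (SE 0.49) was 0.14 without TAK-931-1. Tnfrsf21 (death receptor DR6) had 10.1 and 7.67 CPM in vehicle, 76 CPM (TAK-931-1) and 18.4 CPM (TAK-931-2), with no overlap and a log2 fold change of 2.41 (SE 0.76, adjusted p 0.275 by edgeR and 0.0111 by DESeq2) that was 1.05 without TAK-931-1. Tnfrsf25, the receptor of the ligand encoded by Tnfsf15, had 1.13 and 1.2 CPM in vehicle, 2.27 CPM (TAK-931-1) and 2.04 CPM (TAK-931-2), so the TAK-931-treated libraries were close to each other. The log2 fold change was 0.89 (SE 0.61, adjusted p 0.42 by edgeR), 0.81 without TAK-931-1.

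Tnfrsf10b, the mouse death receptor for TRAIL (chromosome 14, 69767472 to 69784411), is the receptor of the Tnfsf10 product. It had 10.1 and 15.3 CPM in vehicle, 11.1 CPM (TAK-931-1) and 12.2 CPM (TAK-931-2). Both TAK-931-treated libraries lay between the vehicle-treated libraries, and the log2 fold change was −0.12 (SE 0.40, adjusted p 0.866 by edgeR). It turned to 0.19 when Vehicle-2 was left out. The difference between the fold changes of Tnfsf10 and Tnfrsf10b was not tested.

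Of the 11 receptors without a death domain, 9 were tested, of which 8 lay above the vehicle pair in each TAK-931-treated library (30% of all tested genes did), with a median log2 fold change of 2.29; DESeq2 called Cd27, Cd40, Tnfrsf11a and Tnfrsf1b (9.78% of all genes). Cd27, a costimulatory receptor of T and NK cells (chromosome 6, 125232622 to 125237027), had 1.01 and 0.3 CPM in vehicle, 63.5 CPM (TAK-931-1) and 4.96 CPM (TAK-931-2). At 97.2-fold in TAK-931-1 it had the largest fold among the tested members, and it was 7.58-fold in TAK-931-2. The fitted log2 fold change of 5.69 (SE 1.58, adjusted p 0.275 by edgeR and 4.04e-05 by DESeq2) was 2.9 when TAK-931-1 was left out and 6.78 when Vehicle-1 was.

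Tnfrsf1b, the TNF receptor of lymphocytes and myeloid cells, had 36.6 and 34.5 CPM in vehicle, 346 CPM (TAK-931-1) and 68.9 CPM (TAK-931-2). The vehicle-treated libraries were nearly equal, and the log2 fold change of 2.55 (SE 0.83, adjusted p 0.275 by edgeR and 0.00654 by DESeq2) was 0.95 without TAK-931-1. Tnfrsf11a, which encodes RANK, the receptor of osteoclast precursors and dendritic cells, had 2.14 and 0.599 CPM in vehicle, 41 CPM (TAK-931-1) and 8.34 CPM (TAK-931-2), without overlap (log2 fold change 4.17, SE 1.14, adjusted p 0.275 by edgeR and 0.000463 by DESeq2). It was 2.6 when TAK-931-1 was left out and 5.33 when Vehicle-1 was. Cd40, the receptor through which helper T cells activate antigen-presenting cells (chromosome 2, 165055636 to 165071654), had 5.81 and 1.56 CPM in vehicle, 25.4 CPM (TAK-931-1) and 20.5 CPM (TAK-931-2). Unlike most members, Cd40 was at a like level in the TAK-931-treated libraries and was spread more widely within vehicle; its log2 fold change of 2.64 (SE 0.74, adjusted p 0.275 by edgeR and 0.00517 by DESeq2) was 3.88 without Vehicle-1, 1.96 without Vehicle-2 and 2.47 without TAK-931-1.

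The T cell costimulatory receptors Tnfrsf4 (OX40), Tnfrsf9 (4-1BB) and Tnfrsf18 (GITR) were higher mainly in TAK-931-1. Tnfrsf4 had 1.36 and 1.32 CPM in vehicle, 11.5 CPM (TAK-931-1) and 1.63 CPM (TAK-931-2). Tnfrsf9 had 9.96 and 10.4 CPM in vehicle, 56.9 CPM (TAK-931-1) and 10.7 CPM (TAK-931-2). Tnfrsf18 had 6.17 and 7.97 CPM in vehicle, 20.7 CPM (TAK-931-1) and 10 CPM (TAK-931-2). In all 3 the groups did not overlap, but TAK-931-2 lay near the vehicle pair. The log2 fold changes were 2.29 for Tnfrsf4 (SE 1.08, adjusted p 0.307 by edgeR and 0.146 by DESeq2), 1.73 for Tnfrsf9 (SE 0.84, adjusted p 0.317 by edgeR and 0.131 by DESeq2) and 1.12 for Tnfrsf18 (SE 0.52). When TAK-931-1 was left out they were 0.28, 0.076 and 0.50. Tnfrsf4 and Tnfrsf18 are neighbours within 15.2 kb of chromosome 4 (156013695 to 156028891).

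Ltbr, the lymphotoxin-beta receptor of stromal and myeloid cells, had 10.3 and 12.7 CPM in vehicle, 61.2 CPM (TAK-931-1) and 18 CPM (TAK-931-2), with a log2 fold change of 1.78 (SE 0.66, adjusted p 0.276 by edgeR and 0.0551 by DESeq2) that was 0.64 without TAK-931-1. Tnfrsf12a, the TWEAK receptor Fn14, had 10.4 and 10.6 CPM in vehicle, 11.6 CPM (TAK-931-1) and 7.29 CPM (TAK-931-2). The vehicle pair was nearly equal and the TAK-931-treated libraries fell on either side of it, with a log2 fold change of −0.15 (SE 0.43, adjusted p 0.846 by edgeR). For Tnfrsf12a this turned to 0.12 when TAK-931-2 was left out. Of its exon bases, 8.29% overlap Hcfc1r1 on the other strand, and strand use is not stated.

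Of the 3 decoy receptors, 1 lay above (30% of all tested genes did), 1 below (32.7%) and 1 overlapped the vehicle pair, shares close to those of all genes. Tnfrsf23, a mouse decoy receptor for TRAIL, had 4.15 and 4.74 CPM in vehicle, 20 CPM (TAK-931-1) and 7.7 CPM (TAK-931-2), with a log2 fold change of 1.64 (SE 0.62, adjusted p 0.276 by edgeR and 0.0881 by DESeq2) that was 0.79 without TAK-931-1. Tnfrsf22, its neighbouring TRAIL decoy, had 3.74 and 2.22 CPM in vehicle, 2.16 CPM (TAK-931-1) and 1.98 CPM (TAK-931-2). The lower vehicle-treated library was close to both TAK-931-treated libraries, and the 1 lower member became 0 with median-of-ratios size factors. Tnfrsf11b, osteoprotegerin, the decoy for RANK ligand, had 2.97 and 1.2 CPM in vehicle, 2.85 CPM (TAK-931-1) and 0.467 CPM (TAK-931-2), and the log2 fold change of −0.33 (SE 1.09) turned to 0.45 when Vehicle-1 was left out and 0.43 when TAK-931-2 was. Tnfrsf26, an orphan receptor of the same chromosome 7 cluster (143607685 to 143685875, with Tnfrsf22 and Tnfrsf23), had 2.14 and 1.56 CPM in vehicle, 10.4 CPM (TAK-931-1) and 3.15 CPM (TAK-931-2), with a log2 fold change of 1.87 (SE 0.79, adjusted p 0.287 by edgeR and 0.143 by DESeq2) that was 0.77 without TAK-931-1. These 3 genes are related in sequence, so the split of reads among them is uncertain.

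Per kilobase of exon, a scale on which genes can be compared, the highest vehicle mean levels were those of Tnfrsf1a (21.7 ± 1.77 CPM per kilobase, SD, n = 2), Tnfrsf12a (10.9 ± 0.17), Tnfrsf1b (7.23 ± 0.305) and Tnfrsf18 (7.02 ± 1.27). The spreads of Tnfrsf1b and Tnfrsf18 overlapped. In TAK-931-treated allografts the highest mean levels were Ltb (59.5 ± 52.8), Tnfrsf1b (42.3 ± 39.9), Tnfrsf1a (41.7 ± 25.2) and Cd27 (21.7 ± 26.3), whose spreads overlapped throughout. Within TAK-931-2 alone the highest levels were Tnfrsf1a (23.9), Ltb (22.2), Tnfsf9 (21.4) and Tnfrsf1b (14). Tnf stood at 0.451 ± 0.0289 CPM per kilobase in vehicle, well under both of its receptors.

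Ligands and receptors that bind each other were also read side by side on this per-length scale. For Fasl and Fas, the level of the ligand in Vehicle-1, Vehicle-2, TAK-931-1 and TAK-931-2 was 0, 0.248, 9.86 and 1.81, and that of the receptor 0.198, 0.266, 6.52 and 1.42. The ligand was the higher of the pair in both TAK-931-treated libraries. For Tnfsf10 and its death receptor Tnfrsf10b, the ligand had 0.888, 0.776, 18.8 and 3.74, and the receptor 3.17, 4.81, 3.5 and 3.84. The receptor was the higher in vehicle, the ligand in TAK-931-1, and the pair was nearly equal in TAK-931-2. For Tnfsf9 and Tnfrsf9, the ligand had 3.81, 3.41, 10.1 and 21.4, and the receptor 4.49, 4.67, 25.6 and 4.83, so that the higher of the pair was the receptor in TAK-931-1 and the ligand in TAK-931-2. For Ltb and Ltbr, the ligand had 6.44, 2.85, 96.8 and 22.2, and the receptor 4.93, 6.07, 29.2 and 8.59. Ltb was the higher of that pair in Vehicle-1 and in both TAK-931-treated libraries, and Ltbr in Vehicle-2.

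The other members with counts were too low to test, and in vehicle none had more than 12 counts. Cd70, the ligand of Cd27, had 2, 0, 20 and 6 counts in Vehicle-1, Vehicle-2, TAK-931-1 and TAK-931-2. Tnfsf15, which encodes the ligand TL1A, had 0, 0, 28 and 8 counts, at least 8.25-fold and 2.61-fold higher in the TAK-931-treated libraries than a floor of 3 counts per vehicle library. Ngfr, the low-affinity nerve growth factor receptor, had 2, 6, 30 and 0 counts, and Tnfrsf8 (CD30) had 12, 0, 8 and 2. Tnfrsf19, Tnfsf8 and Cd40lg had at most 8, 8 and 2 counts in any library. The ligand of Cd40 was therefore not detectable above the floor in these allografts.

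Genes that act with TNF receptors were taken from 6 further lists (36 genes, all of them tested). The groups did not overlap in 18 genes with higher values in TAK-931-treated allografts (30% of all tested genes) and in 4 with lower values (32.7%). The median log2 fold change was 0.36, and 0.11 without TAK-931-1. The unadjusted threshold of 0.05 was passed by 9 genes, all higher (11.6% of all genes); DESeq2 called 7 as higher (9.78% of all genes), and edgeR's adjusted test called 0. The largest values belonged to the TRAF adaptors Traf1 and Traf5. Traf1, an adaptor induced by NF-kappaB, had 4.63 and 4.32 CPM in vehicle, 72.3 CPM (TAK-931-1) and 17.3 CPM (TAK-931-2), with a log2 fold change of 3.32 (SE 0.79, adjusted p 0.275 by edgeR and 0.000282 by DESeq2). Traf5, an adaptor of lymphocyte receptors, had 1.07 and 1.2 CPM in vehicle, 12.9 CPM (TAK-931-1) and 3.03 CPM (TAK-931-2). At the other end, Traf4 had 54.9 and 51.8 CPM in vehicle, 20.1 CPM (TAK-931-1) and 40 CPM (TAK-931-2), and the apoptosis adaptor Fadd had 24.8 and 29.4 CPM in vehicle, 18.4 CPM (TAK-931-1) and 18.7 CPM (TAK-931-2).

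Among the lists, the 4 genes of the TNF shedding list, which holds both promoters of shedding and an inhibitor, all lay above the vehicle pair (30% of all tested genes did), with a median log2 fold change of 1.62. Adam17, the protease that releases TNF from the membrane, had 168 and 159 CPM in vehicle, 214 CPM (TAK-931-1) and 181 CPM (TAK-931-2). Rhbdf2, which brings ADAM17 to the surface of immune cells, had 16 and 16.1 CPM in vehicle, 76.8 CPM (TAK-931-1) and 35.7 CPM (TAK-931-2). Timp3, an inhibitor of ADAM17, had 36.8 and 32.4 CPM in vehicle, 135 CPM (TAK-931-1) and 51.9 CPM (TAK-931-2). Map3k14, the kinase of the non-canonical NF-kappaB pathway downstream of Ltbr and Cd40, had 4.15 and 5.87 CPM in vehicle, 30.1 CPM (TAK-931-1) and 11.9 CPM (TAK-931-2).

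Cflar, which encodes the caspase-8 inhibitor c-FLIP, had 102 and 108 CPM in vehicle, 214 CPM (TAK-931-1) and 218 CPM (TAK-931-2), with a log2 fold change of 1.04 (SE 0.21, adjusted p 0.275 by edgeR and 0.00700 by DESeq2). Tnfaip3, which encodes the feedback inhibitor A20, had 34.2 and 36.4 CPM in vehicle, 66 CPM (TAK-931-1) and 76.9 CPM (TAK-931-2), with a log2 fold change of 1.02 (SE 0.22). Birc3, an inhibitor of apoptosis bound by TRAF adaptors, had 63.9 and 63.7 CPM in vehicle, 91.3 CPM (TAK-931-1) and 160 CPM (TAK-931-2), the same order of the TAK-931-treated libraries as Tnfsf9. Casp8 had 136 and 113 CPM in vehicle, 126 CPM (TAK-931-1) and 120 CPM (TAK-931-2), so that the groups overlapped.

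**Figure D4:**
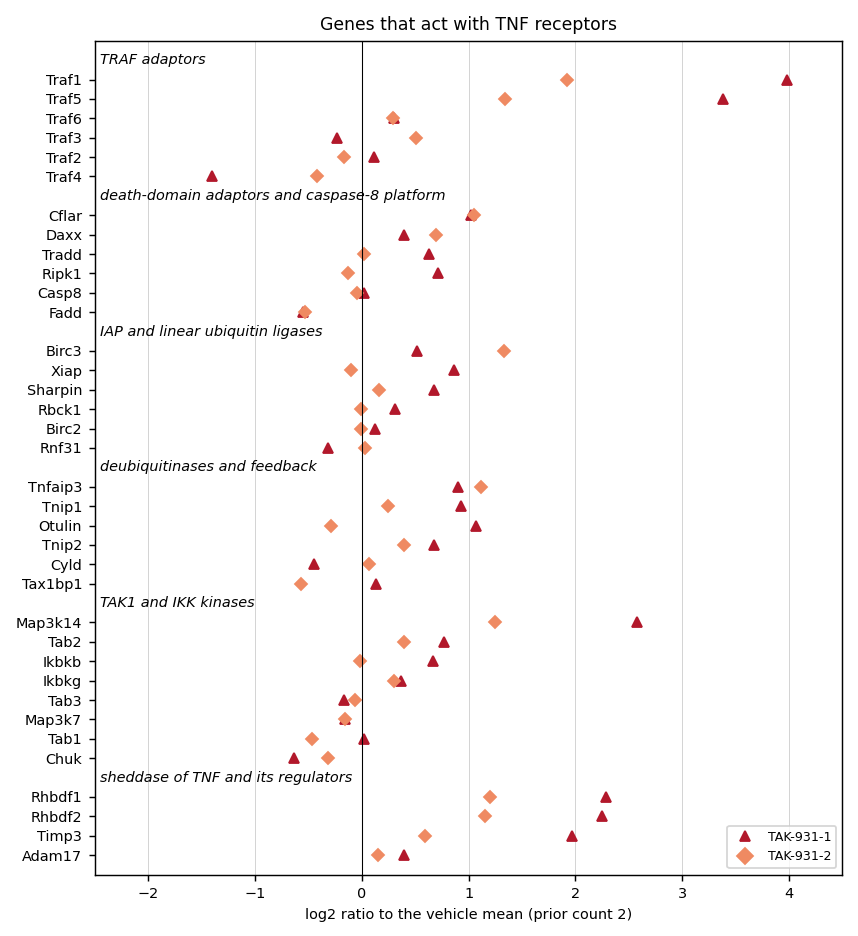
Log2 ratios to the mean of the vehicle pair, by TAK-931-treated library, for 36 genes that act with TNF receptors, grouped by list. Traf1, Traf5, Map3k14 and the shedding genes Rhbdf1 and Rhbdf2 lie farthest to the right in TAK-931-1, and Cflar has nearly equal ratios in both libraries.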

How the data were processed

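Counts per gene were deposited by the authors, 1 table per library, made with featureCounts; the submitters' processing notes name STAR 2.6.1c and the mm10 build, and the column headers name alignment files of uniquely placed reads. Strand use, the annotation release and the treatment of reads shared by 2 genes are not given in the sources used here, and the deposited counts were not normalized. All 37 members matched a RefSeq symbol of GRCm38.p6 at an overlapping position. A second deposited column of another kind, summed exon length in bases, gave CPM per kilobase.

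The filter on low counts was filterByExpr with a minimum count of 10 (edgeR 4.0.16), which left 13669 genes. They were scaled by TMM (factors 0.971 to 1.04) and tested in R 4.3.3 with edgeR's robust quasi-likelihood test, two-sided, all 4 libraries, treatment as the only term, Benjamini-Hochberg adjustment over all genes. SE is the fold change divided by the root of the test's F. Single-library log2 ratios used a prior count of 2. DESeq2 1.42.0, limma-voom (limma 3.58.1), other scalings and filters, halved counts, a replicate block and each library left out were the alternatives. The tests were also run on simulated counts, and the outcome is not given here. The named genes were the members, and by rule those pathway genes with the 2 largest changes in each direction; Adam17, Rhbdf2, Timp3, Map3k14, Cflar, Tnfaip3, Birc3 and Casp8, and the marker genes named, were chosen after their values were seen. Members, roles, pathway and marker lists were chosen with earlier results of these data known.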

Additional observations from a re-analysis of the deposited data

How the results depend on the processing

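With all 4 libraries, 0 members and 0 genes were called by edgeR's adjusted test and by each alternative scaling and filter, by halved counts and by limma-voom. DESeq2 called 13 members and 1411 genes, and the fit with a replicate block called 3 members (Cd27, Ltb and Tnfrsf11a) and 144 genes. Leaving out 1 library gave between 0 and 23 members and between 0 and 8424 genes called: 0 without either vehicle library, 8 members and 3996 genes without TAK-931-1, and 23 members and 8424 genes without TAK-931-2. The fit without TAK-931-1 tested 28 members and 13915 genes, and the fit without TAK-931-2 tested 33 members and 14506 genes. Without TAK-931-1 the share of members called was close to that of all genes, at the adjusted and the unadjusted threshold. Without TAK-931-2 the share of members was the higher. In these fits the single TAK-931-treated library is assumed to vary like the vehicle pair, so the spread under treatment was not measured. Libraries that share a number did not deviate together (correlation 0.00409), and the labels name no shared mouse, litter or day, so the number was not taken as a pairing. At an unadjusted p, 13 of 28 members and 2475 of 13669 genes passed. By limma-voom these were 2 members and 1860 genes, a lower share of members than of genes. Leaving out 1 library gave between 11 and 23 members, with 12 of 28 members and 5672 of 13915 genes without TAK-931-1 and 23 of 33 members and 9156 of 14506 genes without TAK-931-2.

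The 1 member below the vehicle pair became 0 with median-of-ratios size factors, at least 10 counts in every library or counts halved, and between 1 and 4 with 1 library left out. The median log2 fold change of the tested members (2.21) was between 0.80 and 2.76 with 1 library left out, and that of the pathway genes (0.36) between 0.11 and 0.43; the lowest value of each was without TAK-931-1. Of 28 tested members, 22 had a positive log2 fold change under each alternative run. The sign turned for 5. With 1 library left out, Tnfrsf10b (−0.12) ranged from −0.39 to 0.19, Tnfrsf11b (−0.33) from −2.14 to 0.45, Tnfrsf12a (−0.15) from −0.53 to 0.12, Tnfsf11 (0.48) from −0.11 to 1.39 and Tnfsf14 (0.06) from −0.83 to 0.57; Tnfsf14 was also −0.036 by limma-voom and −0.040 with the replicate block. The cause of these differences was not tested.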
